A study of Mus musculus with 16 samples.

Results

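The enzymes that write, copy and remove DNA methylation were followed here at the RNA level in mouse embryonic stem cells (mESC), in unselected RNA and in RNA recovered with the transcription factor Sox2. The genes are Dnmt1, Uhrf1, Dnmt3a, Dnmt3b, Dnmt3l, Tet1, Tet2, Tet3 and Tdg. They were taken by symbol from the gene annotation and are 9 of the 53379 genes counted. All 9 passed the filter on low counts, which left 22936 genes for testing.

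Sox2 was immunoprecipitated (IP) from male mESC after crosslinking with UV light (UV-RIP) or with formaldehyde (fRIP), and the RNA that came with it was sequenced. UV light joins RNA to protein in direct contact, whereas formaldehyde also joins molecules that are held near each other through other proteins. Each crosslinker has 4 IP libraries and 4 input libraries, and the IP and input of 1 replicate number (3, 4, 5 and 6) came from 1 lysate of 1 culture plate. All groups shared the line and the medium, which held serum, 1000 U/mL of leukaemia inhibitory factor (LIF), 1 µM of the MEK inhibitor PD0325901 and 3 µM of the GSK3 inhibitor CHIR99021 (2i/LIF). No genotype differed between groups, all plates were of male mESC, and libraries from an IP without the Sox2 antibody were not analysed here.

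Methylation of cytosine in CpG pairs is copied onto the new strand after replication by DNMT1, which UHRF1 brings to half-methylated sites. DNMT3A and DNMT3B methylate DNA de novo, and DNMT3L, which has no catalytic activity of its own, stimulates them. The TET proteins oxidize the methyl group in steps, and the glycosylase TDG cuts out the most oxidized forms so that base excision repair can restore plain cytosine. In mESC, 2i/LIF is known for low methylation of the genome, with strong Tet1 and Tet2 and little Tet3, and Dnmt3b and Dnmt3l are repressed by the transcription factor PRDM14.

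The values are unique molecular identifiers (UMIs) per gene, each counting an original RNA fragment once, over the whole gene body with introns. Libraries held between 12456298 and 21211537 UMIs, and values are given as CPM, the UMIs of a gene per 1000000 UMIs of that total. Gm26917, a gene annotated as a long non-coding RNA, took between 12.03% and 12.29% of UMIs in UV-RIP input, between 18.35% and 22.34% in UV-RIP IP, and between 5.44% and 12.4% in the fRIP libraries. Of 8 markers of pluripotent cells, 7 had at least 10 UMIs in every library. The other is Sox2, which is listed at 0 in all 16 libraries and lies within the annotated gene Sox2ot, so that its own RNA could not be followed. The paper checked the pulldown of Sox2 protein by western blot. Markers of primed or differentiated cells summed to between 8.81 and 14.2 CPM and fibroblast markers to between 3.87 and 10.2 CPM per library. In 1 library, fRIP input 4, small RNA genes annotated as misc_RNA took 2.81% of UMIs, against between 0.349% and 0.620% in the other fRIP inputs. Calls of the 9 genes that change without replicate 4 of fRIP are given both ways.

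The promoters of Tet2, Tet3 and Dnmt3l are shown because CpG pairs are what these enzymes act on, and because these genes carry the main differences described below. Each is the stretch of 250 bases before the first start site listed by RefSeq for GRCm38.p6, read 5′ to 3′ on the strand of the gene, with each CG in capitals.
Tet2, minus strand, chr3:133544391-133544640: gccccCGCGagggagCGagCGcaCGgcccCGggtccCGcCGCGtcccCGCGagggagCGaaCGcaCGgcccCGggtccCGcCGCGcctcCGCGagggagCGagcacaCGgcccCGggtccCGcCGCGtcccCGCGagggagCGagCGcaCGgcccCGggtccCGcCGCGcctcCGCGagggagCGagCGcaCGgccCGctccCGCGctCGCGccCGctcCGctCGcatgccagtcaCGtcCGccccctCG
Tet3, minus strand, chr6:83441679-83441928: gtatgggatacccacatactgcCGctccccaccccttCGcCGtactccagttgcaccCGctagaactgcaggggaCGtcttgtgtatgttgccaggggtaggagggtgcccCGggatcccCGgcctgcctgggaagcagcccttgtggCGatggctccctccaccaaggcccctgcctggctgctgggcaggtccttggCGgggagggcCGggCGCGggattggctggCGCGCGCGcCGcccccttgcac
Dnmt3l, plus strand, chr10:78042037-78042286: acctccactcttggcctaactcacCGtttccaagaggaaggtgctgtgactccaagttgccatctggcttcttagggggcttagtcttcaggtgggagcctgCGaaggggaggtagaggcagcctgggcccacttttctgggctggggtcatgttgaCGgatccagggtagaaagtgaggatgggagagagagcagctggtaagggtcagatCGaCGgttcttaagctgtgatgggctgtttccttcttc
The Tet2 window holds 51 CpG pairs, and 99.9% of the 32851 windows of this length in RefSeq hold fewer. The Tet3 window holds 17 and the Dnmt3l window 5, beside a median of 6. The windows at the other starts of Dnmt3l hold 4 and 3. Across the 16 windows of the 9 genes the letters ACAATG occurred in 0 and ACAAAG in 1, a downstream start of Dnmt3a, reading both strands. Both are close to the short site that Sox proteins bind in DNA, and 10.7% and 16.5% of all windows hold them. These counts describe letters in a window and not binding, and the UMI counts do not tell which start was used.

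The order of the enzymes in unselected RNA was led by Tet1, Uhrf1, Tet2 and Dnmt1, with Tet3 last. In UV-RIP input, per kb of gene body, Tet1 stood at 16.4 ± 0.284 CPM per kb (SD, n = 4) and Uhrf1 at 11.2 ± 0.407. Tet2 followed with 7.30 ± 0.179 and Dnmt1 with 5.45 ± 0.173 CPM per kb. The de novo enzymes were lower, Dnmt3b with 1.90 ± 0.0371 CPM per kb, Dnmt3a with 0.748 ± 0.0524 and Dnmt3l with 0.435 ± 0.0508. Tdg lay between Dnmt3b and Dnmt3a with 1.57 ± 0.0774 CPM per kb, and Tet3 had 0.144 ± 0.00660. In this group no library of any of the 9 genes overlapped with those of its neighbour in the order. Among genes tested, 98.7% had a lower level per kb than Tet1 and 40.7% a lower level than Tet3. Tet3 shares 3553 bases with another annotated gene on its own strand and 6568 with one on the other strand. Tet1 shares 1871 bases with one on its own strand. The same-strand genes held 0 UMIs and the other at most 2 in any library. How reads in shared bases were counted is not stated, and the lengths used here include those bases.

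In fRIP input the order was similar but less sharply spaced. Uhrf1, with 19.6 ± 2.53 CPM per kb of gene body (SD, n = 4), and Tet1, with 17.04 ± 1.13, overlapped, as did Tet2, with 7.89 ± 0.596, and Dnmt1, with 7.08 ± 0.237. Dnmt3b had 3.01 ± 0.298 CPM per kb, Dnmt3l 2.00 ± 0.382, Tdg 1.18 ± 0.0233, Dnmt3a 0.872 ± 0.0800 and Tet3 0.186 ± 0.0410, with no overlap between neighbours. Dnmt3l thus stood sixth of 9 in fRIP input and eighth in UV-RIP input. Per kb of merged exons, which would be the fitting length if all UMIs came from mature mRNA, Dnmt1 stood above Tet2 in both inputs, at 38.9 against 35.3 CPM per kb in UV-RIP input. On that scale Tet1 was first in fRIP input as well, with 115.1 CPM per kb against 92.8 for Uhrf1.

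**Figure D1:**
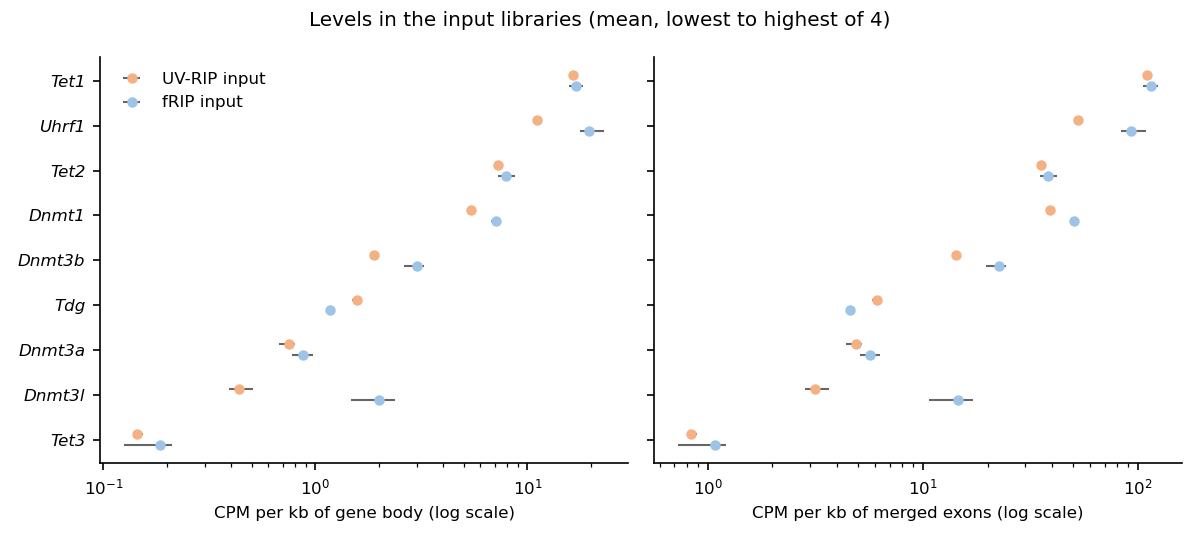
Level of the 9 genes in the input libraries, in CPM per kb of gene body (left) and per kb of merged exons (right), both on log axes, with points at the mean of 4 libraries and lines from the lowest to the highest. Tet1 and Uhrf1 lead on both scales and Tet3 is last, while Dnmt3l is the gene whose points lie farthest apart, at 0.435 and 2.00 CPM per kb of gene body.

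The largest difference of the set between the inputs was that of Dnmt3l (ENSMUSG00000000730.13, chr10:78041947-78063622, plus strand, GRCm38), the cofactor of the de novo enzymes. It had 8.91, 9.29, 8.48 and 10.99 CPM in UV-RIP inputs 3 to 6, and 43.2, 47.2, 51.3 and 32.1 CPM in fRIP inputs 3 to 6. The lowest fRIP input was thus far above the highest UV-RIP input. fRIP input exceeded UV-RIP input by 2.20 on the log2 scale (SE = 0.137), a fold of 4.60, with an adjusted p of 2.17e-08 by the quasi-likelihood test of edgeR. Among the 10208 well counted genes, those averaging at least 100 UMIs over the 16 libraries, 0.0882% had a larger value. Dnmt3l overlaps Aire on the opposite strand over 1664 bases, and Aire had 6.95 CPM in UV-RIP input beside 9.42 for Dnmt3l, and 9.37 in fRIP input beside 43.4. Aire itself differed by 0.43 on the log2 scale between the inputs (edgeR adjusted p = 0.0328) and by -0.30 between UV-RIP IP and input (adjusted p = 0.0218), and the counting is not stated to use strand.

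Dnmt3b, Uhrf1 and Dnmt1 were also higher in fRIP input. Dnmt3b (ENSMUSG00000027478.15, chr2:153649450-153687730, plus strand) had between 70.7 and 73.7 CPM in UV-RIP inputs and between 100.4 and 125.0 in fRIP inputs. Its log2 fold change was 0.66 (SE = 0.0785, edgeR adjusted p = 6.41e-06). Uhrf1 (ENSMUSG00000001228.14, chr17:56303321-56323486, plus strand) had 233.7, 214.3, 228.2 and 223.2 CPM in UV-RIP inputs 3 to 6 and 357.0, 464.8, 402.3 and 356.9 in fRIP inputs 3 to 6. Its groups were fully separate, with a log2 fold change of 0.81 (SE = 0.0824, edgeR adjusted p = 1.51e-06), or 0.73 without fRIP input 4. Dnmt1 (ENSMUSG00000004099.16, chr9:20907209-20959888, minus strand) rose by less, from 286.9 ± 9.09 to 372.9 ± 12.5 CPM (SD, n = 4), a log2 fold change of 0.38 (edgeR adjusted p = 0.000126). For Dnmt3a (ENSMUSG00000020661.15, chr12:3806007-3914443, plus strand) the groups overlapped, and the log2 fold change of 0.22 (edgeR adjusted p = 0.0426) lost its call under 10 alternatives, among them leaving out UV-RIP input 4 (0.18, adjusted p = 0.152), UV-RIP input 5 or 6, or fRIP input 3 or 5.

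Tet1 and Tet2 did not pass between the inputs, and Tdg was lower in fRIP input. Tet1 (ENSMUSG00000047146.17, chr10:62804570-62908996, minus strand) had 1710 ± 29.6 CPM in UV-RIP input and 1779 ± 118.5 in fRIP input (SD, n = 4). The log2 fold change of 0.057 had a 95% confidence interval from -0.076 to 0.19, and the value was 0.020 without fRIP input 3 and 0.097 without fRIP input 4. Tet2 (ENSMUSG00000040943.12, chr3:133463679-133545139, minus strand) had 594.7 ± 14.6 and 643.0 ± 48.6 CPM, with an interval from -0.027 to 0.25, although without fRIP input 4 its log2 fold change of 0.15 passed (edgeR adjusted p = 0.0199) and without fRIP input 3 it was 0.063. Tdg (ENSMUSG00000034674.18, chr10:82629828-82650799, plus strand) was lower in fRIP input, with between 23.9 and 25.0 CPM against between 31.1 and 34.6. Its log2 fold change was -0.42 (SE = 0.0803, edgeR adjusted p = 0.000618). Tet3 passed narrowly with 0.37 (edgeR adjusted p = 0.0486), and this call was lost under 11 alternatives, among them leaving out fRIP input 3, 5 or 6 or any 1 UV-RIP input, while without fRIP input 4 the value was 0.51 (adjusted p = 8.71e-06).

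By adjusted p alone, 6 of the 9 genes were higher in fRIP input and 1 was lower, beside 20.2% and 17% of all genes tested, or 33.6% and 23.2% of the well counted genes. The higher count was 4 with TMM factors (a scaling that discounts a few very abundant genes), without Gm26917 and Gm42418, with DESeq2 median of ratios and with a trend on GC content removed. With a trend on gene length removed it was 8, where Tet1 (0.21, adjusted p = 0.0164) and Tet2 (0.23, adjusted p = 0.0133, edgeR) passed. Past a fold of 1.5 as well, 3 were higher (Dnmt3l, Uhrf1 and Dnmt3b) and 0 lower, also with DESeq2, beside 10.6% and 9.44% (1 was lower at an unadjusted p under the threshold). The groups did not overlap for Dnmt1, Uhrf1, Dnmt3b and Dnmt3l (higher) and Tdg (lower), beside 19% higher and 17.5% lower over all genes tested. Markers of pluripotent cells moved with these genes: 6 of 7 tested were higher in fRIP input, and their sum was between 2040 and 2190 CPM in UV-RIP input and between 3510 and 3890 in fRIP input. Of the other marker lists, 3 of 9 differentiation markers and 3 of 5 fibroblast markers tested were higher in fRIP input, at summed levels of 14.2 CPM or less. The part of these in the result was not tested. The crosslinkers were used on separate plates, so crosslinker and culture cannot be told apart, nor in bulk RNA can fewer cells of a type and less RNA per cell.

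**Figure D2:**
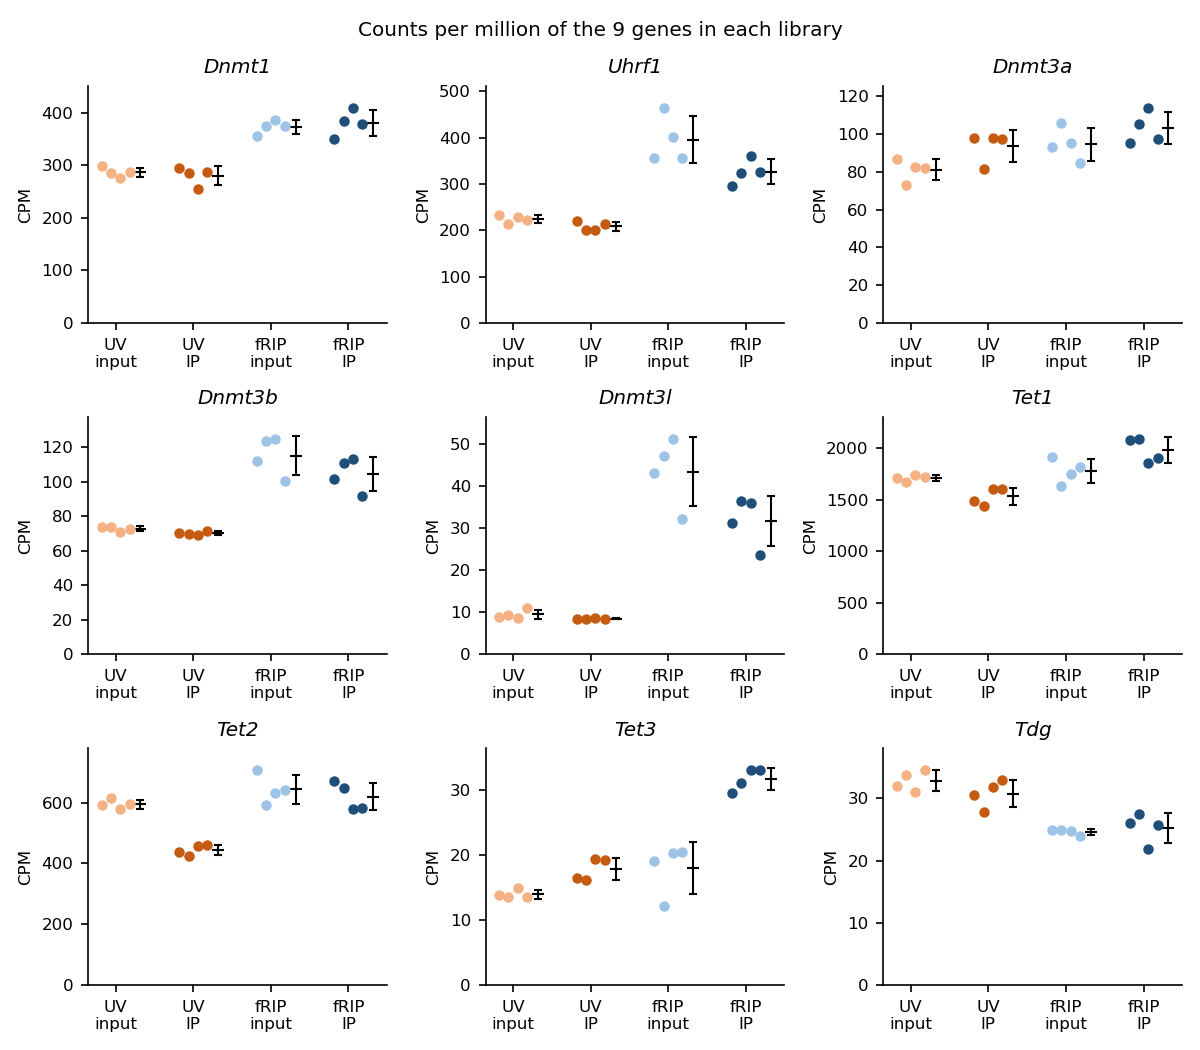
CPM of each gene in the 16 libraries, on linear axes from 0, with 4 points per group in the order of replicates 3 to 6 and a bar for the mean ± SD. Dnmt3l, Uhrf1 and Dnmt3b sit higher in both fRIP groups than in both UV-RIP groups, and the second fRIP input point of Tet3, at 12.1 CPM, lies below the other fRIP inputs.

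In UV-RIP, the question was which of these RNAs were recovered with Sox2 more than their share of the input. Tet3 and Dnmt3a were higher in the IP, and Tet2 was lower, under every scaling tried. All of these differences were below a fold of 1.5. The median gene had a log2 fold change of -0.17 when libraries were scaled by total UMIs and 0.0052 with TMM factors, and the calls over all genes moved from 1514 higher and 6640 lower to 3724 and 3400. Changes are therefore also given relative to that median.

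Tet3 (ENSMUSG00000034832.15, chr6:83362373-83459084, minus strand), the TET enzyme best known from the zygote, had 13.9, 13.5, 14.8 and 13.5 CPM in UV-RIP inputs 3 to 6. The IPs of the same plates had 16.5, 16.1, 19.3 and 19.3 CPM. Every IP was above every input. The log2 fold change was 0.36 (SE = 0.0755, edgeR adjusted p = 1.23e-05), or 0.53 above the median gene, and it rested on between 168 and 333 UMIs per library.

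Dnmt3a was higher in the IP on 4 of 4 plates, with 86.7, 73.2, 82.4 and 82.2 CPM in inputs 3 to 6 and 97.7, 81.2, 98.0 and 97.4 in the IPs. Plate 4 was lowest in both groups, which overlapped, while each plate moved the same way. The log2 fold change was 0.21 (SE = 0.0448, edgeR adjusted p = 2.05e-05), or 0.38 above the median gene. Tet2 had 592.6, 613.9, 578.4 and 593.7 CPM in inputs 3 to 6 and 437.6, 424.5, 456.3 and 460.1 in the IPs, all below the inputs. Its log2 fold change was -0.42 (SE = 0.0373, edgeR adjusted p = 9.2e-28), or -0.25 relative to the median gene, and 75.0% of genes tested had a higher value. In the joint fit of 16 libraries the edgeR adjusted p of Tet2 was 2.07e-06.

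Tet1 and Uhrf1 passed as lower by total UMIs, at -0.16 (adjusted p = 3.39e-05) and -0.11 (edgeR adjusted p = 0.0227), but TMM factors turned both above 0, to 0.024 and 0.075, with no call. With the GC trend removed Tet1 passed as higher (0.14, edgeR adjusted p = 0.000314). The call of Uhrf1 was also lost without UV-RIP replicate 3, 5 or 6. In the joint fit of 16 libraries Uhrf1 lost its call as well (edgeR adjusted p = 0.231), and Tet1 kept it narrowly (adjusted p = 0.0334). Every Tet1 IP, between 1440 and 1606 CPM, lay below every input, between 1671 and 1742. Relative to the median gene Tet1 was at 0.012 and Uhrf1 at 0.063. Dnmt1, Dnmt3b, Dnmt3l and Tdg did not pass by total UMIs, with log2 fold changes of -0.034, -0.050, -0.17 and -0.094. Single replicates moved 3 of these values, Dnmt3l to -0.074 without UV-RIP replicate 6, Tdg to -0.036 without replicate 4 and Dnmt1 to -0.00540 without replicate 5. Their 95% confidence intervals reached from -0.36 for Dnmt3l to 0.042 for Dnmt1, and all 4 were above 0 with TMM factors, where Dnmt1 (0.15, adjusted p = 9.36e-05) and Dnmt3b (0.13, adjusted p = 0.0117) passed as higher.

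By adjusted p alone, 2 of 9 were thus higher and 3 lower in the UV-RIP IP, beside 6.60% and 29.0% of all genes tested and 12.7% and 53.8% of the well counted genes. Past the fold of 1.5 there were 0 in either direction with edgeR and with DESeq2 (5 had an unadjusted p under the threshold), beside 0.680% higher and 5.53% lower. The IP and input groups did not overlap for Tet3 (above) and for Tet1 and Tet2 (below), beside 4.93% above and 25.0% below over all genes tested. Gm26917 moved with these values, with a median of 12.3% of UMIs in input and 20.5% in IP, and leaving it and Gm42418 out of the library sizes left 3 genes of the set higher and 1 lower.

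In fRIP, Tet3 was the 1 gene of the set recovered past a fold of 1.5, and Dnmt3l and Uhrf1 were recovered less than their share. The inputs here are the fRIP inputs of the comparison between inputs, so the values of the 2 comparisons are not independent. Tet3 had 18.98, 12.1, 20.3 and 20.4 CPM in inputs 3 to 6 and 29.6, 31.0, 33.1 and 33.0 in the IPs. All IPs were above all inputs, and input 4 stood apart from the other inputs. The log2 fold change was 0.84 (SE = 0.107, edgeR adjusted p = 7.05e-07), a fold of 1.79. The log2 ratio of IP to input was 1.36 on plate 4 and between 0.64 and 0.70 on the other plates, and without plate 4 the fold change was 0.68 (edgeR adjusted p = 9.08e-17). With a trend on gene length removed it was 0.59 (edgeR adjusted p = 0.0001), just past the fold.

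Dnmt3l was lower in the fRIP IP on 4 of 4 plates, with 43.2, 47.2, 51.3 and 32.1 CPM in inputs 3 to 6 and 31.1, 36.3, 36.0 and 23.5 in the IPs. Replicate 6 was lowest in both groups, which overlapped, while the log2 ratio per plate stayed between -0.51 and -0.38. The log2 fold change was -0.45 (SE = 0.0824, edgeR adjusted p = 8.01e-05). Aire, which overlaps Dnmt3l, was at 0.035 (edgeR adjusted p = 0.851). Uhrf1 was lower on 4 of 4 plates as well, at -0.27 (SE = 0.0776, edgeR adjusted p = 0.00642), from 395.3 ± 51.1 CPM in input to 326.3 ± 26.5 in IP (SD, n = 4). Its ratio was -0.52 on plate 4, without which the fold change was -0.19 (edgeR adjusted p = 0.000228). With the length trend removed the call of Uhrf1 was lost (edgeR adjusted p = 0.0684).

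The other 6 genes did not pass in fRIP with total UMIs. Tet1 was at 0.16 with a 95% confidence interval from 0.0064 to 0.31 (edgeR adjusted p = 0.0951), from 1779 ± 118.5 CPM in input to 1982 ± 122.6 in IP. It passed as higher with TMM factors (0.20, edgeR adjusted p = 0.00998), without Gm26917 and Gm42418 (adjusted p = 0.0339), with DESeq2 median of ratios (adjusted p = 0.0234), with the GC trend removed (0.33, adjusted p = 0.000755) and in the joint fit of 16 libraries (adjusted p = 0.0229). The value was 0.088 without plate 4 (edgeR adjusted p = 0.0572) and -0.11 with the length trend removed. Tet2 was at -0.054, with an interval from -0.21 to 0.097, and passed as lower with the length trend removed (-0.26, edgeR adjusted p = 0.00622). Dnmt3a was at 0.12, Dnmt3b at -0.14, Dnmt1 at 0.029 and Tdg at 0.032. Dnmt3b passed as lower with the GC trend removed (-0.21, edgeR adjusted p = 0.0258) and in the joint fit of 16 libraries (adjusted p = 0.0376), which made 3 genes lower in each. It had nearly the same ratio on each plate, between -0.15 and -0.13 on the log2 scale. Without plate 4, Dnmt3a (0.17, adjusted p = 0.00952), Dnmt3b (-0.14, adjusted p = 0.0304) and Tet2 (-0.11, adjusted p = 0.0252, edgeR) passed as well. Without plate 5 Dnmt3a was at 0.079, and on leaving out 1 plate Dnmt1 lay between 0.00937 and 0.046, Tdg between -0.00582 and 0.10 and Tet2 between -0.11 and -0.025.

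By adjusted p alone, 1 of 9 was higher and 2 were lower in the fRIP IP, beside 17.6% and 21.9% of all genes tested and 29.2% and 38.4% of the well counted genes. Past the fold it was 1 higher and 0 lower with edgeR and DESeq2 (2 were lower at an unadjusted p under the threshold), beside 8.80% and 10.7%. With 9 genes, these counts are near the background shares. The groups did not overlap for Tet3 alone, beside 15.3% above and 19.2% below.

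**Figure D3:**
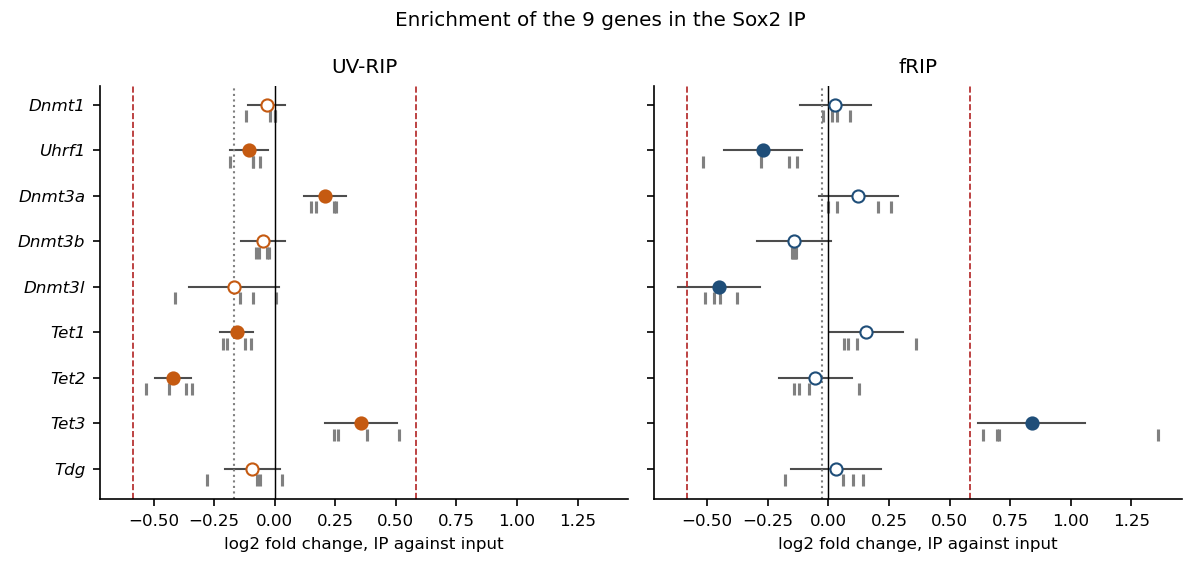
Log2 fold change of IP against input for the 9 genes in UV-RIP (left) and fRIP (right), with 95% confidence intervals as lines, filled circles for an adjusted p below 0.05 and grey ticks for the 4 plates. Dotted lines mark the median of all genes tested and dashed lines a fold of 1.5, which only Tet3 in fRIP, at 0.84, lies beyond.

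The difference between the crosslinkers was tested directly, as the fRIP enrichment minus the UV-RIP enrichment over all 16 libraries. It uses the same IP and input libraries as the comparisons above and is no separate evidence. The 3 TET genes had higher values in fRIP, and with total UMIs no member was lower (1 had an unadjusted p under the threshold, and DESeq2 with total UMIs also gave 0). Tet1 differed by 0.31 (SE = 0.0783, edgeR adjusted p = 0.0032), Tet2 by 0.37 (SE = 0.0799, edgeR adjusted p = 0.000949) and Tet3 by 0.48 (SE = 0.138, edgeR adjusted p = 0.00969). The plates did not overlap between crosslinkers for Tet1, Tet2 and Tet3, higher in fRIP, and for Dnmt3b, lower in fRIP, beside 25.2% higher and 10.8% lower among the 17399 genes tested with UMIs in all 16 libraries, and 35.1% and 15.9% of the well counted genes. The log2 ratios of Tet1 lay between -0.21 and -0.098 in UV-RIP and between 0.066 and 0.36 in fRIP, and those of Tet3 between 0.24 and 0.51 and between 0.64 and 1.36. For Dnmt3l the difference was -0.29 (edgeR adjusted p = 0.0811, or 0.0243 before adjustment), and it passed at -0.31 without fRIP replicate 4 (adjusted p = 0.032). Uhrf1 was at -0.17, Dnmt3b at -0.093, Dnmt3a at -0.082, Dnmt1 at 0.063 and Tdg at 0.13. Single replicates moved most of these, Uhrf1 to -0.083 without fRIP replicate 4 and Dnmt3a to -0.040 without it, -0.052 without fRIP replicate 3 and -0.13 without fRIP replicate 5. Tdg was at 0.067 without UV-RIP replicate 4 and 0.20 without fRIP replicate 5, and Dnmt1 at 0.034 without UV-RIP replicate 5. Under other settings more members passed as lower. Uhrf1 (-0.28, adjusted p = 0.0136) and Dnmt3b (-0.21, adjusted p = 0.0356, edgeR) did so with TMM factors, and both also without Gm26917 and Gm42418, with DESeq2 median of ratios and with the length or GC trend removed. Dnmt3l passed under the same 5 settings (-0.40, edgeR adjusted p = 0.0115 with TMM factors). Dnmt3a passed with the length trend (-0.46, adjusted p = 0.000396) or the GC trend (-0.24, adjusted p = 0.0425, edgeR) removed.

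With 3 of 9 higher and 0 lower, the set stood beside 18.6% and 8.07% of all genes tested, and beside 34.5% and 15.9% of the well counted genes. The counts depended on the scaling, with 3 higher and 3 lower with TMM factors, 1 and 3 without Gm26917 and Gm42418, 2 and 3 with DESeq2 median of ratios, and 1 and 4 with the GC trend removed. Past the fold of 1.5 there were 0 in either direction by edgeR (4 had an unadjusted p under the threshold), beside 7.87% and 2.69%. The median gene was itself 0.15 higher in fRIP, a shift that TMM factors brought to 0.030, with calls over all genes going from 4264 higher and 1852 lower to 3062 and 2810. Relative to that median Tet1 was at 0.17, Tet2 at 0.22 and Tet3 at 0.34. Without fRIP replicate 4 the differences were 0.25, 0.31 and 0.32 (adjusted p = 5.33e-05, 1.97e-06 and 0.0128, edgeR). The call of Tet3 was lost under 5 alternatives, among them library sizes without Gm26917 and Gm42418 (0.35, adjusted p = 0.0635) and DESeq2 median of ratios (0.34, adjusted p = 0.107). The call of Tet1 was lost without Gm26917 and Gm42418 (0.18, adjusted p = 0.0519) and with a trend on GC content removed. The TET genes are also long, with bodies of 104.4, 81.5 and 96.7 kb for Tet1, Tet2 and Tet3. The 685 well counted genes of between 80 and 110 kb had a median difference of 0.34, with quartiles of 0.16 and 0.52, so each TET gene lay inside the middle range of genes of its length. Dnmt3a, the other long member with 108.4 kb, was at -0.082, below the lower quartile. With a trend on gene length removed, 0 of the 9 were higher and 4 lower, and Tet1 was at -0.0567, Tet2 at 0.038 and Tet3 at 0.12.

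The same genes of 80 to 110 kb place the enrichments themselves. In fRIP their median log2 fold change was 0.21, with quartiles of -0.059 and 0.49. Tet3, at 0.84, lay above the upper quartile, while Tet1, at 0.16, Tet2, at -0.054, and Dnmt3a, at 0.12, lay between the quartiles. In UV-RIP the median was -0.12, with quartiles of -0.27 and 0.080. Tet3, at 0.36, and Dnmt3a, at 0.21, lay above the upper quartile and Tet2, at -0.42, below the lower one.

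**Figure D4:**
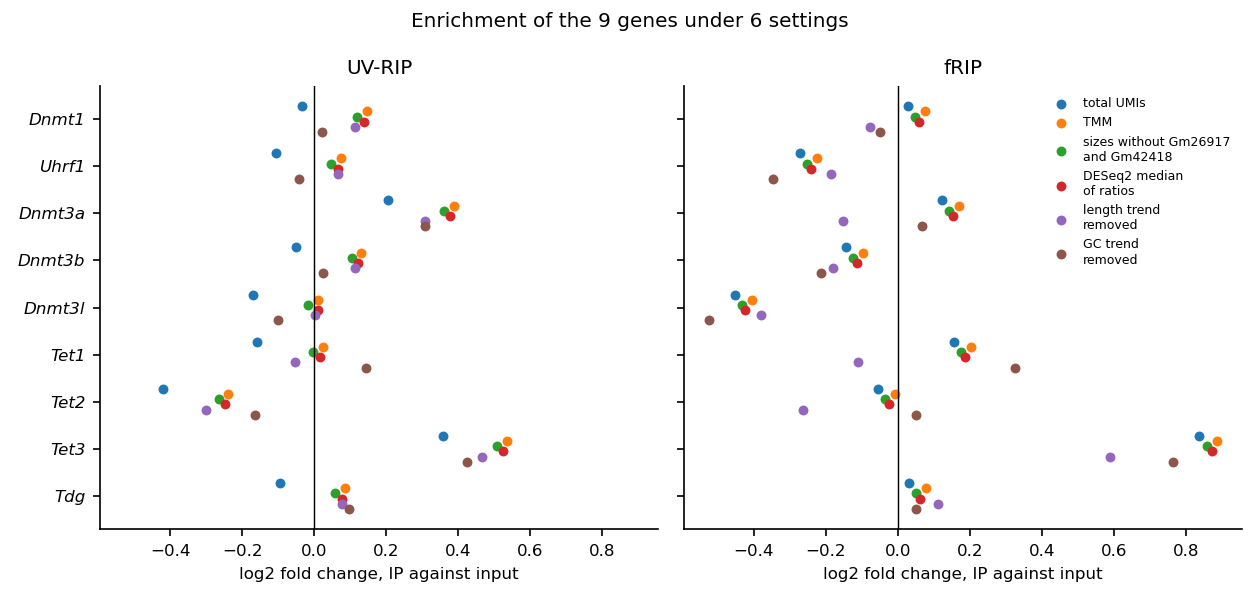
Log2 fold change of IP against input for the 9 genes under 6 settings: scaling by total UMIs, TMM factors, library sizes without Gm26917 and Gm42418, DESeq2 median of ratios, and removal of a trend on gene length or GC content. In UV-RIP, Tet3 and Dnmt3a stay above 0 and Tet2 below 0 while the others change side, and in fRIP the length trend moves Tet1, Tet2, Tet3 and Dnmt3a most, with Tet3 going from 0.84 to 0.59.

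The genes with the profile most like that of Tet3, by the root mean square difference of the log2 ratio over the 8 plates among the 10208 well counted genes, were Smad7, Tbc1d2 and Hs6st1. Smad7, an inhibitor of TGF-β signalling, differed by 0.0605 and had log2 fold changes of 0.35 in UV-RIP and 0.88 in fRIP, Tbc1d2 differed by 0.0612 and Hs6st1, which adds sulfate to heparan chains, by 0.0674. Their bodies of 28.4, 45.8 and 38.0 kb were shorter than that of Tet3. For Dnmt3l, the member lowest in fRIP, they were Unc119 (0.0747), Riox2 (0.0871) and Sohlh2 (0.0883). The nearest member to Tet3 was Dnmt3a, with a difference of 0.588, and the nearest to Dnmt3l was Uhrf1, with 0.235.

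Of 10 genes from families with readers of methylated CpG (the readers), 5 were higher and 2 lower in the fRIP IP by adjusted p. Over all genes tested 17.6% and 21.9% were so, and 29.2% and 38.4% of the well counted genes. The list goes by family, and Mbd3, Mbd5 and Mbd6 are not established readers of methylated CpG. Mbd5 and Mbd6 were among the higher genes and Mbd3 among the lower. The median log2 fold change of the 10 genes was 0.22 beside -0.027 over all genes tested. With the length or the GC trend removed it was 3 higher and 2 lower. Zbtb4, a zinc finger reader, was at 0.79 (adjusted p = 4.46e-05) and Mbd6 at 0.55 (edgeR adjusted p = 0.00197), from 5.16 ± 0.939 to 8.96 ± 1.32 CPM and from 31.2 ± 10.9 to 44.2 ± 6.83 (SD, n = 4). Zbtb33, which encodes Kaiso, was at -1.09 (adjusted p = 1.09e-07), and Mbd3, a subunit of the NuRD complex, at -0.21 (edgeR adjusted p = 0.0433), though its call was lost under 9 alternatives and it was above 0 with the length trend removed. The call of Mbd6 was lost with DESeq2 (adjusted p = 0.111 with total UMIs), with the GC trend removed (0.32, edgeR adjusted p = 0.07) and without the replicate block. In UV-RIP, 1 was higher (Zbtb38, 0.11) and 7 lower, among them Mbd5 (-0.54) and Zbtb33 (-0.48), with a median of -0.24 beside -0.17 over all genes, where 6.60% of genes were higher and 29.0% lower (12.7% and 53.8% of the well counted genes). With TMM factors it was 3 higher and 3 lower, with a median of -0.062, and the calls of Zbtb33 and, without replicate 5 or 6, of Zbtb38 were lost. With the GC trend removed Zbtb33 was at -0.0552 and Mbd5 at -0.30, and DESeq2 with total UMIs called neither Zbtb33 nor Zbtb38.

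Among 17 cofactors and regulators, Cxxc5, a zinc finger protein that binds unmethylated CpG, had the largest enrichment in both crosslinkers. It rose from 82.3 ± 4.15 to 113.9 ± 3.98 CPM in UV-RIP (SD, n = 4), a log2 fold change of 0.47 (edgeR adjusted p = 3.57e-25). In fRIP it went from 70.1 ± 14.7 to 153.6 ± 7.71 CPM, a log2 fold change of 1.16 (edgeR adjusted p = 8.36e-10). Ehmt2, a histone H3K9 methyltransferase, was also higher in both, at 0.30 in UV-RIP and 0.33 in fRIP, the second with no call once the GC trend was removed (0.13, edgeR adjusted p = 0.18). In all, 4 were higher and 11 lower in UV-RIP and 3 higher and 9 lower in fRIP, with medians of -0.29 and -0.19. The well counted genes had 12.7% higher and 53.8% lower in UV-RIP and 29.2% and 38.4% in fRIP. With TMM factors the counts were 4 and 7 in UV-RIP and 3 and 8 in fRIP.

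The lowest of these regulators in fRIP were Pcna, the replication clamp, at -1.11 (adjusted p = 1.73e-08), and Dppa3, which keeps UHRF1 from chromatin, at -0.92 (edgeR adjusted p = 3.13e-05). With the length trend removed they were at -0.70 and -0.50. In UV-RIP they were Hells, a chromatin remodeller needed for methylation, at -0.58, and Ogt, the O-GlcNAc transferase that binds TET proteins, at -0.56. With the GC trend removed Hells was at -0.11 and Ogt at -0.24, both still called lower.

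Genes of base excision repair and of the supply of methyl donor and 2-oxoglutarate had no member higher in the fRIP IP with total UMIs, and their counts in UV-RIP moved with the scaling, as those over all genes did. Of 12 repair genes, 3 were lower in UV-RIP and 4 in fRIP, with 0 higher in either by edgeR, by DESeq2 with total UMIs, or at an unadjusted p under the threshold. Lower calls made up 29.0% of all genes tested and 53.8% of the well counted genes in UV-RIP, and 21.9% and 38.4% in fRIP. Higher calls made up 6.60% and 12.7% in UV-RIP, and 17.6% and 29.2% in fRIP. With TMM factors, which took the median gene in UV-RIP from -0.17 to 0.0052 and gave 3724 genes higher and 3400 lower, the repair genes had 4 higher and 1 lower, with their median going from -0.091 to 0.090. Apex1, the abasic site endonuclease, fell most in fRIP, from 81.6 ± 19.2 to 44.3 ± 4.13 CPM (SD, n = 4), a log2 fold change of -0.86 (edgeR adjusted p = 2.95e-08), or -0.33 with the length trend removed. Smug1 was at -0.41, with no call under 7 alternatives, among them without replicate 4 (-0.15), with the length trend removed (-0.0232) and with TMM factors. Neil3 and Polb were lowest in UV-RIP, at -0.40 and -0.25, with Polb at -0.071 and no call under TMM factors and at 0.0535 with the GC trend removed. The call of Neil3 was lost with the GC trend removed (-0.0335, edgeR adjusted p = 0.847) and with DESeq2 median of ratios (-0.23, adjusted p = 0.163). Of 8 supply genes, 5 were lower and 0 higher in UV-RIP with total UMIs (1 was higher at an unadjusted p under the threshold and 0 with DESeq2), and 2 lower and 2 higher with TMM factors. In fRIP 6 were lower and 0 higher under either scaling. Mat2a, which makes S-adenosylmethionine, fell from 295.9 ± 41.3 to 162.4 ± 22.4 CPM in fRIP, a log2 fold change of -0.87 (edgeR adjusted p = 1.93e-08) or -0.55 with the length trend removed, and Idh1 was at -0.77. In UV-RIP, Mat2b was at -0.45 and Mat2a at -0.33, and with the GC trend removed Mat2b was at -0.20 and Mat2a at -0.0106 with no call (edgeR adjusted p = 0.915).

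The same lists were counted between the crosslinkers and between the inputs, with no test of a list. The readers had 6 of 10 higher and 1 lower in fRIP enrichment than in UV-RIP enrichment, with a median of 0.38 beside 0.15 over all genes, of which 18.6% were higher and 8.07% lower (34.5% and 15.9% of the well counted genes), or 4 higher and 1 lower with TMM factors, 2 and 1 with the length trend removed and 3 and 1 with the GC trend removed. Of the 17 cofactors and regulators 2 were higher and 4 lower, with a median of 0.060. Of the 12 repair genes 0 were higher and 3 lower, and of the 8 supply genes 0 and 4, by edgeR. DESeq2 with total UMIs also gave 0 higher in both, and 1 repair gene and 0 supply genes were higher at an unadjusted p under the threshold. In the inputs, 6 of the 8 supply genes, 5 of the 12 repair genes, 7 of the 17 regulators and 2 of the 10 readers were higher in fRIP, and 0, 1, 2 and 1 were lower in the same order. All genes tested had 20.2% higher and 17% lower there, and the well counted genes 33.6% and 23.2%. Trim28, the corepressor that guards methylation at imprints with Zfp57, was at 1.29 there, and Prdm14, the repressor of Dnmt3b and Dnmt3l, was at 0.069 (edgeR adjusted p = 0.548), from 41.8 ± 3.22 to 43.9 ± 2.11 CPM.

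**Figure D5:**
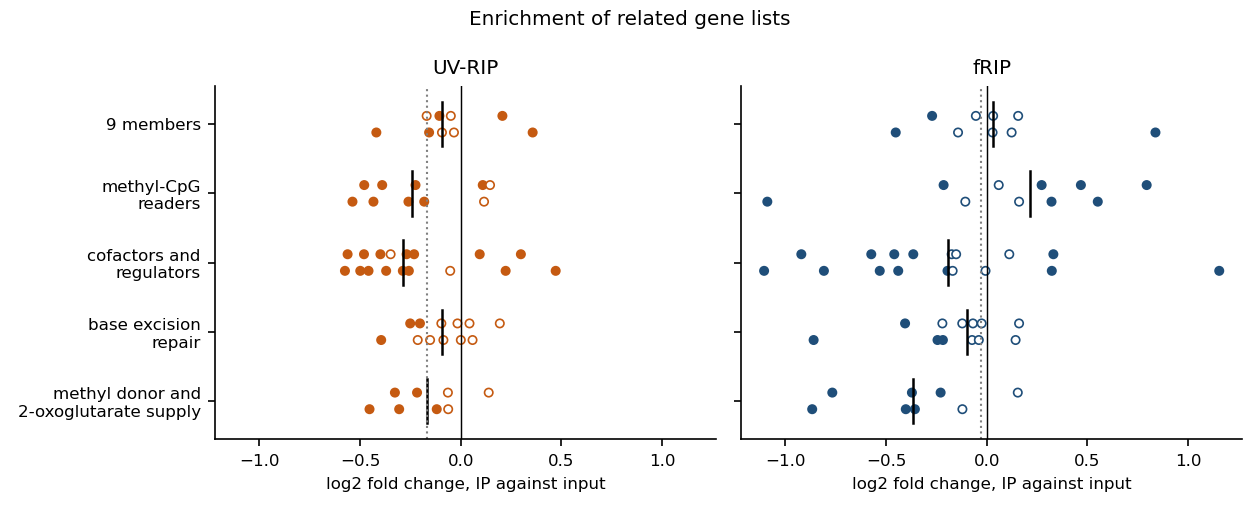
Log2 fold change of IP against input for the 9 genes and the 4 related lists in UV-RIP (left) and fRIP (right), 1 circle per gene, filled where the adjusted p is below 0.05. Black bars mark the list's median and dotted lines the median of all genes tested: the readers' median is 0.22 in fRIP and -0.24 in UV-RIP.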

How the data were processed

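RNA was measured in 16 libraries, 4 IP and 4 input per crosslinker, made with ribosomal RNA depletion and UMI adaptors. The authors mapped reads with STAR, discarded those that did not map uniquely, and deposited UMI counts per gene body on GENCODE vM16, not normalized. The versions of STAR and featureCounts and the strand setting are not given in the sources used here. Because introns count and multimapped reads do not, long genes and genes with near copies are affected. Dnmt3c held at most 7 UMIs and Tdg-ps at most 3 in any library. Symbols, coordinates and lengths are from GENCODE vM21 on GRCm38, matched by identifier and version for 50604 genes, the 9 members among them.

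The counts were tested in R 4.3.3 with edgeR 4.0.16 (quasi-likelihood), with total UMIs as library size. The filter kept genes reaching 3 UMIs in any 1 library. IP was compared with input with the replicate number as a block, since both came from 1 lysate. The departures of IP and input of 1 number from their group means had r of 0.114 to 0.601 (fRIP) and 0.0286 to 0.441 (UV-RIP) across 10208 genes. The crosslinkers were compared by an interaction term with plate as a block, and the inputs without a block. Adjusted p is by Benjamini-Hochberg over all genes tested, and the call past the fold is 1.5 with an adjusted p below 0.05. Replicates were separate culture plates of the same cells, and no 2 libraries of a group agreed within sampling noise (chi-square divided by its degrees of freedom was at least 1.72).

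The members and the gene lists were chosen with earlier results of these data known. Named genes are all members, in each related list and IP comparison up to 2 genes with the largest positive and 2 with the largest negative called fold change at a mean of 10 or more UMIs, and 3 nearest profiles for the members highest and lowest in fRIP. Aire, Trim28 and Prdm14 were named after their values were seen. The steps were tested on simulated data with 200 genes changed by 1 on the log2 scale, of which 100% were recovered in the simulated UV-RIP (22748 genes), fRIP (22881 genes) and input (22824 genes) comparisons and 99.5% in the interaction (22933 genes). Alternatives were TMM factors, library sizes without Gm26917 and Gm42418, DESeq2 1.42.0 with total UMIs or median of ratios, other count filters, other fold rules, fits with or without the block or over 16 libraries, trends on length or GC content removed, and each replicate left out. Libraries held between 12456298 and 21211537 UMIs, so the least counted member, Dnmt3l in UV-RIP input, rested on between 111 and 152 UMIs.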

Additional observations from a re-analysis of the deposited data

Results flagged for a closer look

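In 5 of 54 groups of 4 values tested, 1 value lay far from the others, and chance gives about 1 in 20. The log2 IP to input ratio of Dnmt1 on UV-RIP plate 5 was -0.12, beside values between -0.018 and 0.0012 on the other plates. Dnmt3a had 81.2 CPM in UV-RIP IP 4, beside 97.4 to 98.0 in the other IPs, and its input on the same plate was also the lowest, at 73.2. Tet3 had 12.1 CPM in fRIP input 4, where the other inputs had 18.98 to 20.4, and its log2 ratio on that plate was therefore 1.36, against 0.64 to 0.70 on the others. Tdg had 23.9 CPM in fRIP input 6, beside 24.8 to 25.0.

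The log2 ratio of IP to input was higher in fRIP than in UV-RIP for 3 of 9 genes by the interaction test (edgeR, adjusted p below 0.05). Tet1 differed by 0.31, Tet2 by 0.37 and Tet3 by 0.48. Of all genes tested 18.6% were higher, and 34.5% of the well counted genes, so the count is near that of well counted genes. With the length trend removed it was 0.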

How the results depend on the processing

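Under total UMIs the UV-RIP comparison called 2 members higher and 3 lower. The higher count was 4 with TMM factors and 4 with the length trend removed, and the lower count was 1 with TMM factors, without Gm26917 and Gm42418, with DESeq2 median of ratios, and with the length or GC trend removed. With no fold threshold, the calls past the fold went from 0 to 2 higher and 3 lower in UV-RIP, from 0 to 2 lower in fRIP, and to 6 higher and 1 lower between inputs. Over all genes, the calls past the fold in UV-RIP were 156 higher and 1268 lower, and 505 and 425 with TMM factors. Between inputs, 4634 genes were higher and 3890 lower by adjusted p, and 3602 and 5017 without Gm26917 and Gm42418.

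In UV-RIP, values that turned above 0 were, with TMM factors, Dnmt1 0.15, Uhrf1 0.075, Dnmt3b 0.13, Dnmt3l 0.00957, Tet1 0.024 and Tdg 0.086. With DESeq2 median of ratios they were Dnmt1 0.14, Uhrf1 0.067, Dnmt3b 0.12, Dnmt3l 0.00990, Tet1 0.016 and Tdg 0.077. Without Gm26917 and Gm42418 they were Dnmt1 0.12, Uhrf1 0.048, Dnmt3b 0.10 and Tdg 0.059. With the length trend removed they were Dnmt1 0.11, Uhrf1 0.066, Dnmt3b 0.11, Dnmt3l 0.00202 and Tdg 0.078. With the GC trend removed they were Dnmt1 0.023, Dnmt3b 0.025, Tet1 0.14, Tdg 0.096 and Polb 0.0535. A scaling moves every gene by about the same amount, the median gene going from -0.17 to 0.0052 with TMM factors, so the turns under the 3 scalings are that shift. The cause of those with a trend removed was not tested.

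In fRIP, 1 member was higher and 2 were lower. The higher count was 2 with TMM factors, without Gm26917 and Gm42418, with DESeq2 median of ratios, with the GC trend removed and in the joint fit of 16 libraries. Leaving out a replicate gave 1 to 2 higher and 2 to 4 lower, both highest without replicate 4. Signs turned with the length trend removed for Dnmt1 (-0.0769), Dnmt3a (-0.15), Tet1 (-0.11) and Mbd3 (0.091), with the GC trend removed for Dnmt1 (-0.0508) and Tet2 (0.0503), and for Tdg on leaving out a replicate, between -0.00582 without replicate 4 and 0.10.

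For fRIP minus UV-RIP enrichment, 3 members were higher and 0 lower. The higher count was 1 without Gm26917 and Gm42418, 0 with the length trend removed and 1 with the GC trend removed. The lower count was 3 with TMM factors, without Gm26917 and Gm42418 and with DESeq2 median of ratios, and 4 with the length or the GC trend removed. Leaving out a replicate gave 0 to 1 lower, Dnmt3l passing at -0.31 without fRIP replicate 4 and at -0.38 without UV-RIP replicate 6. Dnmt1 turned to -0.0551 with TMM factors, -0.0717 without Gm26917 and Gm42418, -0.0844 with DESeq2 median of ratios, -0.19 with the length trend removed and -0.0734 with the GC trend removed. Tdg turned to -0.00697, -0.0199 and -0.0435 without Gm26917 and Gm42418, with DESeq2 median of ratios and with the GC trend removed, and Tet1 to -0.0567 with the length trend removed. Between inputs Tet1 turned to -0.0418 without Gm26917 and Gm42418.

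Without the replicate block, Uhrf1 in UV-RIP (adjusted p = 0.096) and Tet3 in the interaction (adjusted p = 0.0505, edgeR) lost their calls, and with the block between inputs Dnmt3a did (0.22, adjusted p = 0.0727). Of the values of members, 92 of 126 in UV-RIP, 108 of 126 in fRIP, 117 of 153 in the interaction and 128 of 153 between inputs kept direction and call. Depth limits Tet3 and Dnmt3l most in UV-RIP, and Tet3, Tdg and Dnmt3l in fRIP.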
